A study of Mus musculus with 26 samples.

Results

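Open chromatin of mouse embryonic stem (ES) cells was set against that of mouse epiblast stem cells (EpiSC) grown in the medium named AFX. The assay was ATAC-seq, in which the transposase Tn5 inserts sequencing adapters into accessible DNA, so that accessible sites appear as peaks of reads. The deposited values are lists of broad peaks, 1 list per library. From each of the 9 lists compared (3 ES and 6 EpiSC in AFX), the top 8044 peaks by −log10 p were kept, and overlapping peaks of the 9 lists were merged into 20630 union regions. A list held a region when 1 of its kept peaks overlapped the region by at least 1 bp. The members described here are the 562 regions held by all 3 ES lists and by no EpiSC list, called ES-only, and the 534 regions held by all 6 EpiSC lists and by no ES list, called AFX-only. Together they are 1096 of the 20630 union regions.

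The ES cells were at passage 16 in 2iL, a serum-free medium with inhibitors of the kinases MEK and GSK3 together with the cytokine LIF. The EpiSC were a line labelled (AFX)1 at passage 14 and a line labelled (AFX)2 at passage 16, with 3 libraries each. AFX stands for activin A, FGF2 and XAV939, an inhibitor of tankyrase that dampens canonical Wnt signalling. Libraries of other cells were used only to see which of them hold the same regions. These were EpiSC in AF (activin A and FGF2 without XAV939, passage 22, 3 libraries) and formative stem (FS) cells in the medium A3XR (lines FS1 at passage 21 and FS2 at passage 29, 3 libraries each). A further set, labelled Rd2, had ES cells in 2iL at passage 33 (2 libraries, source name Rd2GFP). It also had EpiSC in AFX at passage 16 (2 libraries) and epiblast-like cells, EpiLC. The EpiLC (4 libraries) had been made from ES cells over 2 days in AF with KSR and sorted for low GFP. Each library was made from 50000 cells, and the series has 26 libraries in all. The labels give no strain, sex or parent line for these cultures, and do not say whether replicates came from separate cultures. The p-values therefore measure the spread between these libraries, which may be technical.

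Naive ES cells in 2iL resemble the epiblast of the blastocyst before implantation. The LIF in their medium signals through STAT3, and a network of transcription factors that includes Klf4, Tfcp2l1, Esrrb, Tbx3, Prdm14 and Nanog maintains them. EpiSC are derived from the epiblast after implantation, depend on activin/Nodal and FGF signalling, carry high levels of the DNA methyltransferases Dnmt3a and Dnmt3b, and are called primed. Both states share the core factors Oct4 (encoded by Pou5f1) and Sox2, which act at different enhancers in each.

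The promoters of 3 genes in separated regions are shown first, because each gene marks one of the states or acts in it. Zfp42 encodes Rex1, a zinc finger protein used as a marker of naive cells, and its promoter lay in an ES-only region. Tfcp2l1, a naive transcription factor, and Dnmt3b, a de novo DNA methyltransferase, had promoters in AFX-only regions. The windows are RefSeq promoter sequences on GRCm38.p6, 300 bases each, written 5′ to 3′ on the strand of the gene. Capitals mark matches on either strand to 4 motifs found in them: the Klf motif GGGNGTGG, the Oct octamer ATGCAAAT, the Tead motif GGAATG and the Tfap2 motif GCCNNNGGC. They were among 11 motifs searched, the other 7 being Esrrb TCAAGGTCA, Sox ACAATGG, Stat TTCCNGGAA, Otx GGATTA, Grhl AACCNGTT, Tcf/Lef CTTTGAT and Nrf1 TGCGCATGC.
Zfp42, chr8:43306960-43307259, minus strand: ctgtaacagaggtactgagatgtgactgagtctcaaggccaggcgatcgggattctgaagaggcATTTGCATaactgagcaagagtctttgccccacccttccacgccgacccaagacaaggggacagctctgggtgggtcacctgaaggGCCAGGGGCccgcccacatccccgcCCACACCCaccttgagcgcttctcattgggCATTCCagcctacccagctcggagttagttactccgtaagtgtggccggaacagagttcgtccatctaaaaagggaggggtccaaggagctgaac
Tfcp2l1, chr1:118627695-118627994, plus strand: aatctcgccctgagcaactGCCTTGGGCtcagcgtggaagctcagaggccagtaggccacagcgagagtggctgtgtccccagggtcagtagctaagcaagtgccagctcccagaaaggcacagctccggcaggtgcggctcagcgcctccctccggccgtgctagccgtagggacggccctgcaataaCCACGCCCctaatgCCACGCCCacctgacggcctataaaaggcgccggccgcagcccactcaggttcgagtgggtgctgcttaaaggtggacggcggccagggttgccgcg
Dnmt3b, chr2:153649199-153649498, plus strand: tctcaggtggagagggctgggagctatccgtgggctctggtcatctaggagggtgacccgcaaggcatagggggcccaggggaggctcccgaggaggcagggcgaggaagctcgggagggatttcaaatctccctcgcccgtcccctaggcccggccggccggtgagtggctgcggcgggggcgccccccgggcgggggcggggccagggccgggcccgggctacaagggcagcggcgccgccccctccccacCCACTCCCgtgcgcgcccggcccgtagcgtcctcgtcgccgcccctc
The Zfp42 window held all 4 of these motifs, and the whole window lay inside the ES-only region. The Tfcp2l1 window held 2 Klf matches and 1 Tfap2 match, and the Dnmt3b window held 1 Klf match. Of all 21263 RefSeq promoter windows of the same length, 19.4% held the Klf motif, 19.9% the Tfap2 motif, 13.6% the Tead motif and 1.66% the octamer. A match is a description of the letters and not a binding site.

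The 562 ES-only regions are 2.72% of the union regions and the 534 AFX-only regions are 2.59%. These shares are set by the rule and are given as a description. Presence in 3 against 6 lists allows no p under 0.0119, and the members are at that limit by the rule, so the following test adds no support. Fisher's exact test with Benjamini-Hochberg adjustment over all 20630 regions called 0 regions (0%). The smallest adjusted p was 0.224. At an unadjusted p under 0.05 there were 1673 regions, 689 of them more often held in ES and 984 in EpiSC. Just outside the rule, 127 regions were held by all 3 ES lists and 1 EpiSC list, 1180 by 2 ES lists and no EpiSC list, 450 by 5 EpiSC lists and no ES list, and 503 by all 6 EpiSC lists and 1 ES list. A further 2190 regions were held by all 9 lists. Leaving out ES replicate 1, 2 or 3 raised the ES-only count to 954, 959 or 942.

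The lists differed in length and in how low their kept peaks reached, which touches every result here. The ES lists held 8044 to 10961 peaks as deposited and the EpiSC lists 17701 to 29575. The 8044th peak had a −log10 p of 3.98 to 4.68 in ES and of 6.61 to 9.61 in EpiSC. The files give no read totals, so the depth is unknown. A missing peak says only that none was listed, and in bulk samples fewer cells with an open site and less opening per cell cannot be told apart.

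ES-only regions were less often at gene ends and more often far from genes than AFX-only regions. Position was taken against 21900 RefSeq protein-coding genes on GRCm38.p6, and a region within 1 kb of either end of a gene counts as a gene end. Of the ES-only regions 17.1% (96 of 562) were at a gene end, 27.8% inside a gene, 27.9% outside genes at 1 to 50 kb, and 27.2% (153) over 50 kb from any gene. Of the AFX-only regions 52.2% (279 of 534) were at a gene end, 31.5% inside a gene, 12.9% at 1 to 50 kb, and 3.37% (18) over 50 kb away. All union regions divided as 41.8%, 26.1%, 18.1% and 14%, and the 2190 regions held by all 9 lists as 75.3%, 13.6%, 6.99% and 4.16%. The ES-only share over 50 kb from any gene was thus higher than in all union regions, and the AFX-only share was lower. The median region was 540 bp wide among ES-only and 457 bp among AFX-only, beside 375 bp over all union regions. These shares are descriptions, because regions of the same lists are not replicates.

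All peaks of the equal-length lists were also compared, with one value per library. They include the peaks of the separated regions, so these tests describe whole lists and add no independent support for the separated regions. Peaks at a gene end made up 49.8%, 50.2% and 48.8% of the 3 ES lists. They made up 61.7%, 60.8% and 62.3% of the (AFX)1 lists and 62.2%, 59.5% and 61.8% of the (AFX)2 lists. The groups did not overlap, and ES was lower by 11.8 percentage points (49.6% ± 0.702, SD, n = 3, against 61.4% ± 1.07, n = 6). An exact two-sided permutation test over the 84 assignments of libraries gave p = 0.0119, adjusted p = 0.0149 over the 5 measures of position and width. That raw p is the smallest this design allows.
Peaks over 50 kb from any gene made up 13.5%, 13.2% and 15% of the ES lists. In EpiSC they made up 4.94%, 4.99% and 5.06% of the (AFX)1 lists and 5.3%, 6.97% and 5.54% of the (AFX)2 lists. Every ES list was above every EpiSC list, with means of 13.9% ± 0.961 (SD, n = 3) and 5.47% ± 0.773 (n = 6), and the exact permutation test gave adjusted p = 0.0149. Peaks outside genes at 1 to 50 kb were also more frequent in ES, at 15.3% ± 0.183 against 11.4% ± 0.486 (exact permutation test, adjusted p = 0.0149). Peaks inside genes were 21.2% ± 0.268 in ES and 21.8% ± 0.392 in EpiSC, and that difference did not pass the test (exact permutation test, adjusted p = 0.0833). The median peak was narrower in ES, 277 ± 2.89 bp against 362 ± 25.8 bp (exact permutation test, adjusted p = 0.0149).
In the lists as deposited, of unequal length, the gene-end difference turned to 4.58 percentage points higher in ES and the difference at 1 to 50 kb turned to -2.74. Neither passed there (exact permutation test, adjusted p = 0.202 and 0.0744), and the excess of ES peaks over 50 kb from genes was 4.22 points (adjusted p = 0.0744). The low-ranking peaks that the equal length removes came mainly from the EpiSC lists, and their part in these values was not tested.

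**Figure D1:**
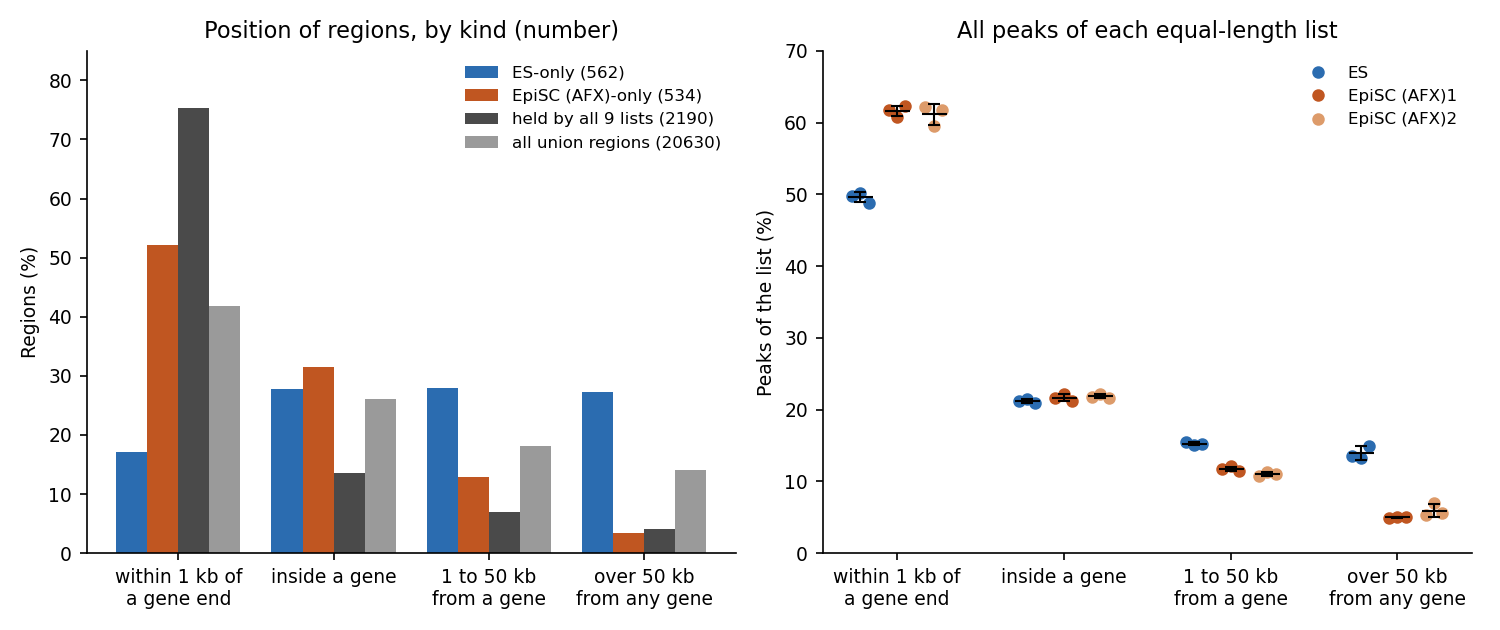
Left, the percent of regions in each class of position for the 562 ES-only regions, the 534 EpiSC (AFX)-only regions, the 2190 regions held by all 9 lists and all 20630 union regions. Right, the percent of all 8044 kept peaks of each library in the same classes (points, libraries; bars, mean and SD of the 3 libraries of each line); ES libraries lie at 48.8 to 50.2% at gene ends, all under the EpiSC libraries at 59.5 to 62.3%.

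The full-length lists show at how many separated regions the other cell type had only a peak below the 8044 kept. A peak below the cut in EpiSC need not be weaker than a kept ES peak, because the cuts differ. Of the 562 ES-only regions, 169 (30.1%) had no peak in any full-length EpiSC list and 104 (18.5%) had a peak in all 6, at ranks below the 8044 kept. Peaks in 1, 2, 3, 4 and 5 EpiSC lists were found at 74, 60, 57, 54 and 44 regions. Single EpiSC lists held from 31% to 48.2% of the ES-only regions at full length. Of the 534 AFX-only regions, 472 (88.4%) had no peak in any full-length ES list, 60 had one in 1 list, 2 in 2 lists and 0 in all 3. Full-length ES lists 1, 2 and 3 held 8.24%, 0% and 3.75% of them. ES list 2 has no peak beyond the 8044, so its 0%, and the 0 regions in all 3 lists, were fixed in advance. The longer EpiSC lists offer more peaks to overlap than the ES lists, so 30.1% and 88.4% are not on 1 scale. Both depend on which peaks are kept: with 4022 peaks per list they were 13% and 40.2%, and with −log10 q of at least 5 they were 18.8% and 14.8%.
Position went with this hold. Of the 96 ES-only regions at a gene end, 50 (52.1%) had a peak in all 6 full-length EpiSC lists and 14 (14.6%) in none. Of the 153 ES-only regions over 50 kb from any gene, 9 (5.88%) had a peak in all 6 and 50 (32.7%) in none. The same shares were not counted over all union regions of each position. Regions held by all 9 lists were themselves mostly at gene ends (75.3%, and 4.16% over 50 kb from any gene). The pattern is therefore not shown to be particular to ES-only regions.
The percentile rank of a peak is its place by −log10 p within its own deposited list, with 100 for the strongest. ES-only regions had a median mean rank of 56.4 in the ES lists (17.1 to 97), and the 393 with some EpiSC peak had a median of 31.6 there. AFX-only regions had a median of 85.3 in the EpiSC lists (70.9 to 99.4), and the 62 with some ES peak a median of 13.5. Kept peaks make up most of an ES list but the top part of an EpiSC list, so the own ranks of the 2 kinds start at different floors.

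**Figure D2:**
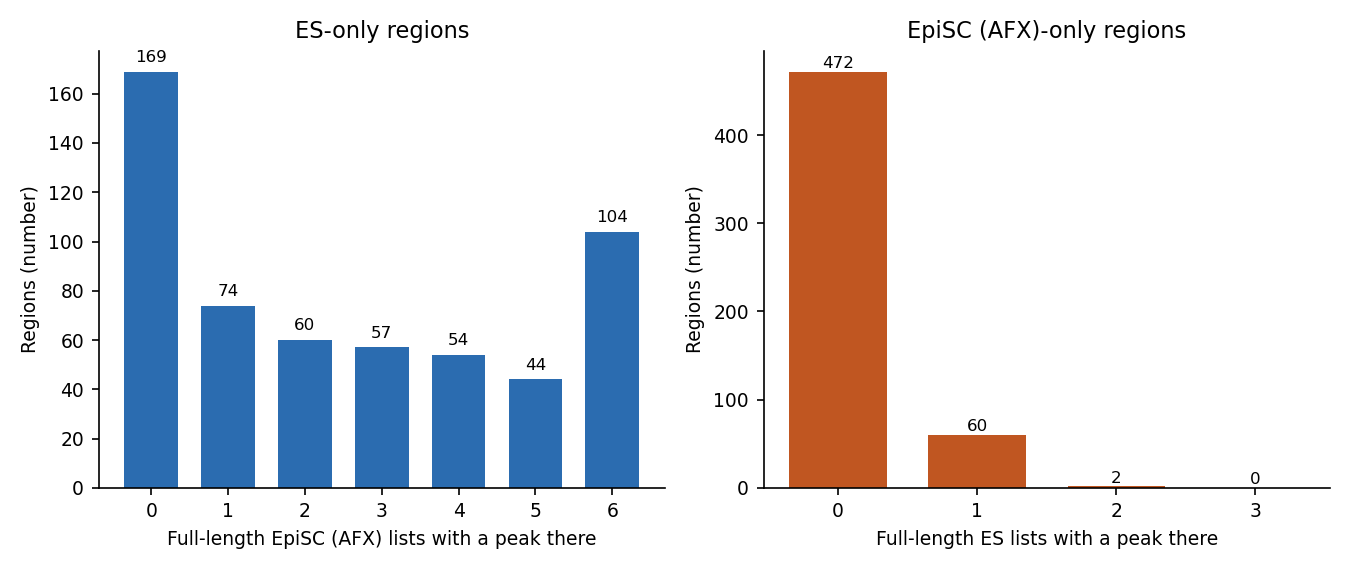
Number of separated regions (vertical axis) by how many full-length lists of the other cell type had a peak there (horizontal axis), for ES-only regions against the 6 EpiSC (AFX) lists and for AFX-only regions against the 3 ES lists. ES-only regions peak at both ends, with 169 in no list and 104 in all 6, while 472 AFX-only regions were in no ES list.

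Among the ES-only regions were 6 within 50 kb of genes on the lists of cell type markers and signalling pathways used here (152 genes in 16 lists). They lay near 6 listed genes (3.95% of 152), beside 3.52% of all protein-coding genes (771 of 21900). Naive factors gave 3 of these genes: Zfp42, Tbx3 and Prdm14, 3 of 13 on that list.
Zfp42 had 2 ES-only regions. The promoter region, chr8:43306959-43307410, contains the sequence shown above, and its peaks had percentile ranks of 41.4, 88.2 and 86.6 in ES lists 1, 2 and 3, with fold enrichments of 3.86, 5.22 and 4.93 as the authors' peak caller gave them. The other region, chr8:43320729-43321235, lies 13.7 kb from the gene and ranked at 71, 72.2 and 53.5. Neither region had a peak in any of the 6 full-length EpiSC lists. Within 50 kb of Zfp42 every ES list had 2 kept peaks and every EpiSC list had 0.
Tbx3 encodes a T-box factor that supports naive self-renewal. Its region at a gene end, chr5:119670549-119671026, ranked at 74.3, 80.6 and 43.5 in ES. All 6 full-length EpiSC lists had a peak there too, at 8.34, 53.7 and 56.7 in (AFX)1 and at 36.9, 21.3 and 24.7 in (AFX)2. These EpiSC peaks were not among the 8044 kept, and percentile ranks from lists of different length do not show which cell type had the stronger peak.
Prdm14, which represses FGF signalling and DNA methyltransferases in naive and germ cells, had a region at 28.1 kb, chr1:13084966-13085349. It ranked at 75.5, 43.4 and 42.9 in ES and had no peak in any full-length EpiSC list. Kept peaks within 50 kb of Prdm14 numbered 2, 1 and 1 in ES and 0 in each of the 6 EpiSC lists.
The other listed genes near ES-only regions were Cdx1, a target of Wnt signalling, Pdgfrb, a receptor of fibroblasts and other mesenchymal cells, and Prdm1, a regulator of germ cell fate. Cdx1 and Pdgfrb share 1 region, which lies within 1 kb of an end of Cdx1 and ranked at 84.5, 74.8 and 38.7 in ES, with no full-length EpiSC peak. The Prdm1 region, chr10:44391959-44392248, lies 44.9 kb from Prdm1 and is nearest to Atg5. It had a peak in 2 of the full-length EpiSC lists, both of line (AFX)2.

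Whether a gene has a separated region also depends on the ranking of peaks. When peaks were ranked by fold enrichment in place of −log10 p, 12 of the 27 listed genes no longer had one. These were Cdx1, Prdm1 and Pdgfrb of the ES-only genes, and Tfcp2l1, Utf1, Socs3, Junb, Dnmt3b, Nes, Foxh1, Tcf7l2 and Tet3 of the AFX-only genes. Zfp42, Tbx3 and Prdm14 still had one, but with 4022 peaks per list these 3 genes had none, as had 24 of the 27.
Other naive factors were not separated in this way. Kept peaks within 50 kb of Klf4 numbered 2, 1 and 1 in ES and 1, 1, 0, 1, 1 and 1 in EpiSC. Esrrb, an orphan nuclear receptor of the naive network, had 1, 1 and 0 in ES and a single peak in 1 of 6 EpiSC lists. Klf2 had 1 in every ES list and in 4 of 6 EpiSC lists. All of these groups overlap.
Tfcp2l1 and Nanog, also naive factors by role, had AFX-only regions. The Tfcp2l1 region, chr1:118627696-118628220, holds 299 of the 300 promoter bases shown above. It ranked at 76.4, 65.9 and 81.9 in (AFX)1 and at 72.2, 80 and 72.3 in (AFX)2, and no ES list of any length listed it. Each ES list had 1 other kept peak within 50 kb of Tfcp2l1. The Nanog region, chr6:122742425-122742738, lies 27.8 kb from Nanog and inside Slc2a3, a glucose transporter gene. It ranked from 65.3 to 84.8 in EpiSC.

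AFX-only regions lay near 21 of the 152 listed genes (13.8%), beside 7.49% of all protein-coding genes (1641 of 21900). The post-implantation epiblast list gave 3 of its 13 genes, the DNA methylation enzymes 3 of 6, the activin and Nodal pathway 4 of 13, and the core pluripotency factors 2 of 8. The LIF and STAT3 pathway and the neural genes gave 2 each (of 10 and 8), the Wnt pathway 2 of 14, and the fibroblast genes 1 of 7.
Dnmt3a and Dnmt3b, counted here on the epiblast list, act beside the DNA methylation enzymes. The Dnmt3b region chr2:153649174-153649583 covers the promoter shown above. It ranked at 80.8, 80.2 and 78.7 in (AFX)1 and at 90.5, 73.7 and 90.7 in (AFX)2, and it was empty in the full-length ES lists. Kept peaks within 50 kb of Dnmt3b numbered 0 in all 3 ES lists and 3, 1, 3, 2, 1 and 3 in the EpiSC lists.
The Dnmt3a region chr12:3891409-3891844 lies inside the gene and covers a RefSeq promoter window of a start within it. It ranked from 80.6 to 97.3 in the 6 EpiSC lists. The Tet1 and Tet3 genes encode enzymes that oxidise 5-methylcytosine, and both had an AFX-only region inside the gene. The Tet1 region ranked from 78.8 to 91.3 in EpiSC. The Tet3 region also had a peak in full-length ES list 1, at a percentile rank of 16.1, against 73.4 to 92.2 in EpiSC. Uhrf1, which recruits the maintenance methyltransferase Dnmt1, had a region 26.2 kb away that is nearest to Ticam1.

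In the activin and Nodal pathway, the region 34.3 kb from the ligand gene Nodal, chr10:61383292-61383716, lies at an end of Pald1. It ranked at 83.8, 88.4 and 93.3 in (AFX)1 and at 98.6, 97 and 97.8 in (AFX)2. Kept peaks within 50 kb of Nodal numbered 0, 1 and 0 in ES and 3, 6, 3, 4, 2 and 3 in EpiSC, so that every EpiSC list was above every ES list. Acvr1b, the type I activin receptor, had a region 32.6 kb away inside Acvrl1, with ranks of 81.1, 83.9 and 75.9 in (AFX)1 and 97.6, 96.6 and 95.1 in (AFX)2. Foxh1, the DNA-binding partner of Smad2 and Smad3, and Skil, an inhibitor of Smad signalling, had regions at 10.7 kb and 26.8 kb. Lefty1 and Lefty2, extracellular inhibitors of Nodal, had no separated region within 50 kb, and their kept peaks overlapped between the cell types (2 in each ES list and 2 to 5 in EpiSC for Lefty1).

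Among the epiblast and core pluripotency genes, Utf1, Tdgf1 and Tcf15 had AFX-only regions. Utf1 encodes a chromatin-associated factor of pluripotent cells, and its promoter region chr7:139943626-139943949 ranked at 80.5, 69 and 87.6 in (AFX)1 and at 87.5, 94.6 and 95.1 in (AFX)2. Tdgf1 encodes the Nodal co-receptor Cripto, and its region lies 48.5 kb away, nearest to Rtp3. No ES list had a kept peak within 50 kb of Utf1 or of Tdgf1, where the EpiSC lists had 1 to 2 and 2 to 3. Tcf15, a factor of epiblast cells leaving the naive state, had a region at a gene end with ranks from 81.3 to 94.9.
Fgf5 and Otx2, the usual markers of the post-implantation epiblast, had no separated region. Fgf5 had 0 kept peaks within 50 kb in every ES list and 3, 0, 2, 1, 2 and 2 in EpiSC, and Otx2 had 0 in every ES list and 2, 0, 1, 1, 1 and 1. List (AFX)1 replicate 2 had no kept peak at either gene and overlaps ES there.
Of the Wnt genes, Tcf7l2, which encodes a Tcf factor, had an AFX-only region at a gene end, and Rnf43, a ubiquitin ligase that removes Frizzled receptors, had one 42.9 kb away inside Tspoap1. In the LIF and STAT3 pathway the feedback inhibitor Socs3 and the AP-1 subunit Junb had regions at 2.31 and 1.12 kb. Junb had 1 kept peak in each ES list and 3 to 8 in the EpiSC lists. Hes5, a Notch target, and Nes, an intermediate filament of neural progenitors, were the neural genes, and Col1a1, a collagen gene, was the fibroblast gene. Its region is 7.02 kb away and ranked from 66.7 to 89.6 in EpiSC.

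**Figure D3:**
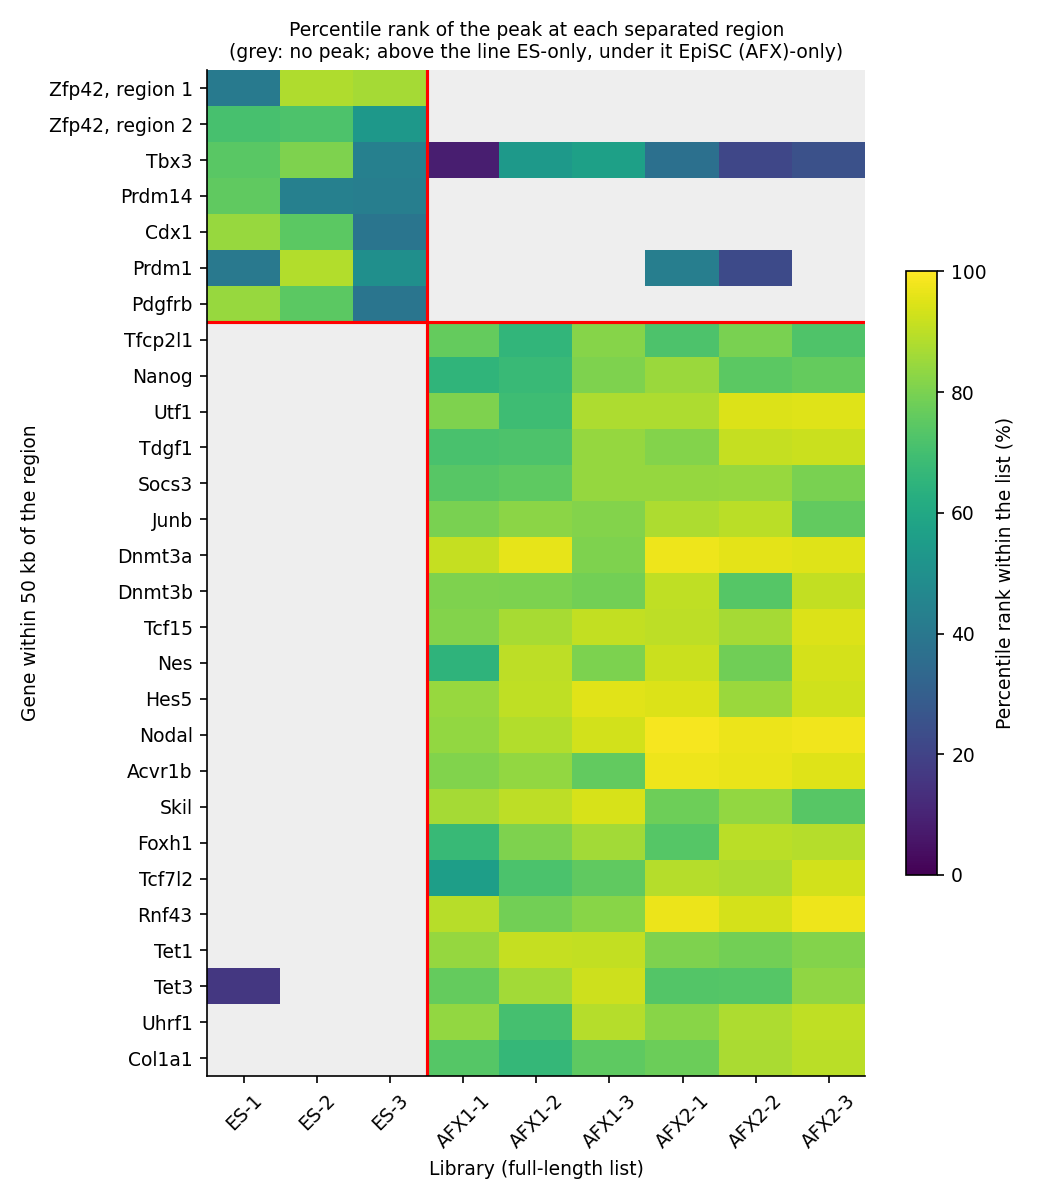
Percentile rank (colour, 0 to 100% of each deposited list) of the strongest peak at each separated region within 50 kb of a listed gene (rows), in the 9 full-length lists (columns; grey, no peak). The 2 Zfp42 regions are grey in all 6 EpiSC columns, Tbx3 has a peak in all 6, and the AFX-only rows are grey in ES except Tet3 in ES list 1.

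Counting peaks gave the same genes a second description. In 482 of 21900 protein-coding genes (2.2%), every ES list had more kept peaks within 50 kb than every EpiSC list, and in 1236 (5.64%) every EpiSC list had more. Of the 152 listed genes 3 (1.97%) were of the first kind, namely Zfp42, Tbx3 and Prdm14, and 13 (8.55%) of the second. The 13 were Utf1, Tdgf1, Junb, Pou3f1, Dnmt3b, Tcf15, Wnt3, Hes5, Nodal, Lef1, Rnf43, Uhrf1 and Thy1. The first share is near its background. Pou3f1, which encodes the epiblast factor Oct6, had 1, 0 and 1 kept peaks in ES and 3, 4, 4, 5, 3 and 3 in EpiSC, although no single region near it was AFX-only. Without ES replicate 1, 2 or 3 the 482 rose to 777, 772 or 776.
Summed over the 13 naive factors, the ES lists held 10 to 13 kept peaks and the EpiSC lists 5 to 9. Over the 13 post-implantation epiblast factors they held 4 to 9 and 14 to 24, and over the 13 activin and Nodal genes 18 to 25 and 26 to 38. Over the 10 genes of the LIF and STAT3 pathway, ES had fewer, 9 to 11 against 14 to 19. The groups do not overlap for these 4 lists. The same holds, with fewer in ES, for the core pluripotency factors (3 to 5 against 9 to 15) and the DNA methylation enzymes (7 to 11 against 14 to 18). It also holds for the FGF and ERK pathway given below, and the remaining lists overlap or touch. The average protein-coding gene also had fewer kept peaks in ES, 0.87 against 1.1. The gap for the naive factors rests on Zfp42, Tbx3 and Prdm14, the naive genes with ES-only regions, which had 0 kept peaks in every EpiSC list. Without these genes the naive sums of ES and EpiSC lists overlap, so the gap is not a trait of the whole naive list. Against a median difference of 0 over all genes (ES minus EpiSC), the naive factors had a median of 0.333, the epiblast factors -0.5, the core factors -0.75, the LIF and STAT3 pathway -0.667, the activin and Nodal pathway -0.833, the FGF and ERK pathway -0.417 and the DNA methylation enzymes -1.17. These lists were chosen with results of these data known, so that their direction is no independent evidence.
Of the lists for other cell types, the neural genes had AFX-only regions near 2 of 8, a median of -0.583 and summed kept peaks of 2 to 5 in ES and 5 to 11 in EpiSC, which touch at 5. Trophoblast, primitive endoderm and 2-cell-like lists had no separated region near any of their 8, 8 and 5 genes, and their summed kept peaks were 4 to 8, 3 to 5 and 1 to 2 in ES and 5 to 8, 2 to 7 and 1 to 3 in EpiSC. Gata6 and Col1a2 had no kept peak within 50 kb in any list. The FGF and ERK pathway had no separated region near its 12 genes, although its summed peaks did not overlap (7 to 9 in ES, 12 to 15 in EpiSC). Fibroblast genes had 2 to 4 in ES and 4 to 7 in EpiSC, and mesendoderm genes 4 to 5 and 3 to 8.

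**Figure D4:**
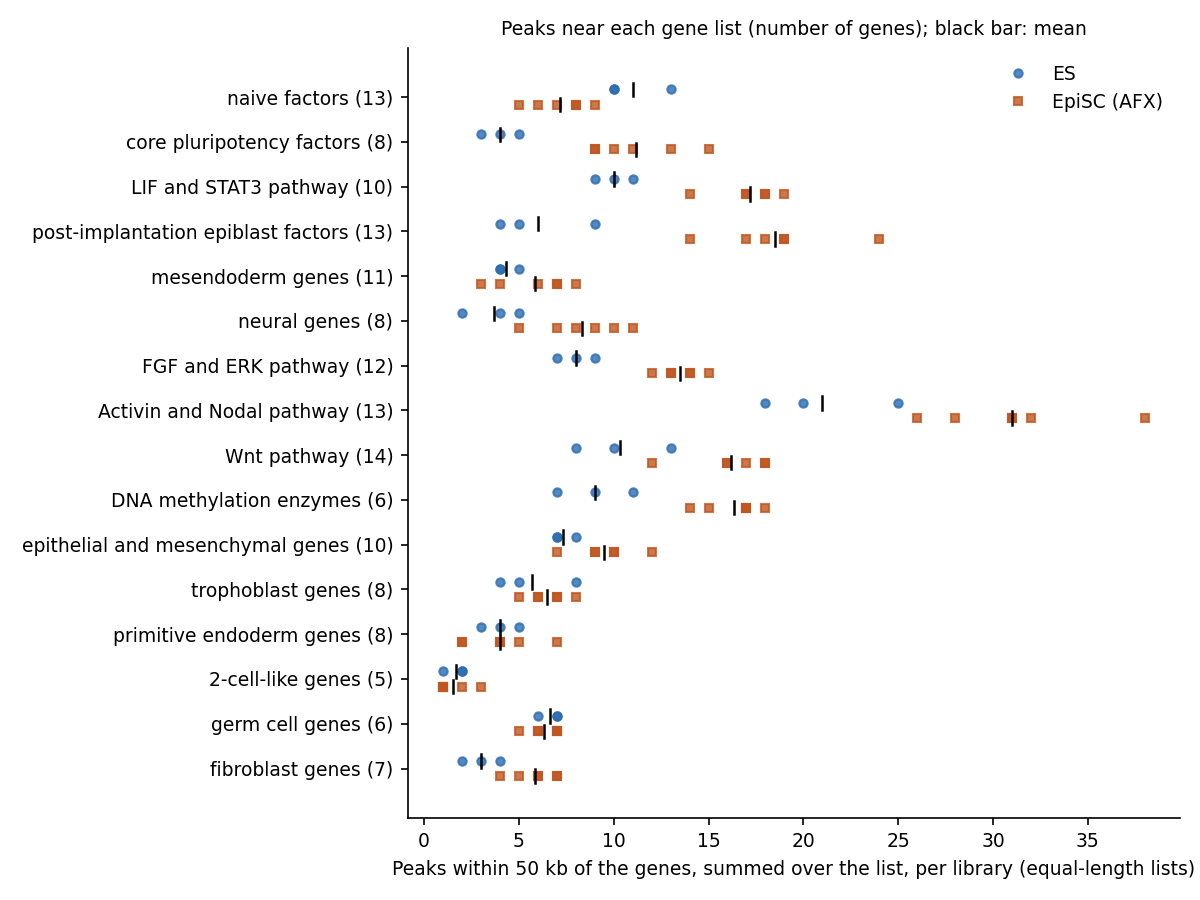
Kept peaks within 50 kb of the genes of each list, summed over the list (horizontal axis), for each library (circles, 3 ES; squares, 6 EpiSC in AFX; bars, means; equal-length lists). ES libraries lie higher only for the naive factors among the lists whose groups do not overlap, at 10 to 13 against 5 to 9. Without Zfp42, Tbx3 and Prdm14 the naive groups overlap.

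The strongest separated regions were not at listed genes. The 6 AFX-only regions with the highest mean rank and no peak in any full-length ES list lay inside Nfic, Scn8a, Spock1, Rap1gap and Sdk2 and at an end of Clstn3. The Nfic region, chr10:81416459-81417006 in a gene for a nuclear factor I transcription factor, ranked at 99.1, 99.4 and 98.4 in (AFX)1 and at 99.8, 99.8 and 99.7 in (AFX)2. Its fold enrichment by the authors' caller was 7.13 to 10.6. The Scn8a region, chr15:100908821-100909253 in a sodium channel gene, had fold enrichments of 8.67, 7.09 and 11.5 in (AFX)1 and 13.4, 14.9 and 12.4 in (AFX)2. All 6 of these regions were also listed elsewhere: they had a peak in each deposited list of EpiSC in AF, FS1, FS2 and Rd2 EpiSC, and in no Rd2 ES list. Of all 534 AFX-only regions, 96.6%, 99.1%, 63.5% and 72.8% were in every list of these groups. In no Rd2 ES list were 96.3% of them. The Spock1 region was the only one of the 6 with no peak in any EpiLC list, as was so for 5.43% of all AFX-only regions.
By number of AFX-only regions within 50 kb, Ell, Gdf15, Isyna1, Lrrc25 and Ssbp4 led with 3 each. They are neighbours on chromosome 8 and share the same regions. Actl6b and Tfr2, neighbours on chromosome 5, also had 3, and Atp8b3, Klf16 and Onecut3, neighbours on chromosome 10, had 2; 144 genes had 2 or more, and ties were taken by the rank of their regions. Isyna1, which encodes inositol-3-phosphate synthase, had 0 kept peaks in every ES list and 3 to 4 in the EpiSC lists.

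A minority of the ES-only regions lay close together. Of the 562 regions, 81 (14.4%) lay in 8 loci of at least 4 regions with gaps of at most 500 kb. The largest locus, chr13:65351895-66711386, held 19 regions among 14 protein-coding genes, and 17 of the 19 had no peak in any full-length EpiSC list. A locus with 18 regions, chr8:19469066-20710796, begins at the defensin gene Defb8, and one with 15, chr4:145594272-147793777, holds 15 zinc finger (Zfp) genes. In each of these 2 loci, 1 region had no peak in any full-length EpiSC list. The spans of the 8 loci hold 1.49% of all union regions (308) and 0.548% of the regions held by all 9 lists, but they were drawn around the ES-only regions, so those shares are no background for 14.4%. Of the AFX-only regions 37 (6.93%) lay in 8 such loci, all among 10 to 57 protein-coding genes, whose spans hold 1.08% of all union regions (223). Loci were not counted in this way over all union regions, so neither 14.4% nor 6.93% has a background here.
Of the 6 top-ranked ES-only regions with no full-length EpiSC peak, 3 were in the chromosome 13 locus. They lay near Gm46425 (chr13:65990982-65991526), at 2410141K09Rik (chr13:66440981-66441369) and in Gm31714 (chr13:65415026-65415461). At 2410141K09Rik the ranks were 96.4, 93.6 and 90.1 in the 3 ES lists. The other 3 lay in Rgl1, near Prl2c5 and near Rbm38. Regions with a peak in all 6 full-length EpiSC lists were led by one over 50 kb from any gene, 183 kb from Gm15319, one 2.08 kb from Pisd and one at an end of Prdm9, which encodes the histone methyltransferase of recombination hotspots. The Prdm9 region ranked at 94.1, 86.8 and 86.1 in ES and at 34.1 to 51.1 in EpiSC.
Genes with the most ES-only regions were Gm40363 with 5 and Zfp978 and Zfp993 with 4. Zfp640, Gm31714, LOC115488129, 9530057J20Rik, Gm52481, Gm40469 and Gm15319 had 3 each. In all, 13 genes had 3 or more, and these 10 were taken by the rank of their regions. Within 50 kb of Zfp640 the ES lists had 4, 5 and 7 kept peaks and each EpiSC list had 0. Near Gm52481 on the Y chromosome the counts were 16, 17 and 18 in ES, 11, 8 and 10 in (AFX)1 and 5, 5 and 4 in (AFX)2.

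The promoters of 4 genes in the chromosome 13 locus lay in ES-only regions, and their sequences are shown because they are near-copies of each other. They are RefSeq windows on GRCm38.p6, 5′ to 3′ on the gene's strand. Capitals mark the Tead motif GGAATG, the only one of the 11 motifs found in them.
Gm31714, chr13:65415073-65415372, minus strand: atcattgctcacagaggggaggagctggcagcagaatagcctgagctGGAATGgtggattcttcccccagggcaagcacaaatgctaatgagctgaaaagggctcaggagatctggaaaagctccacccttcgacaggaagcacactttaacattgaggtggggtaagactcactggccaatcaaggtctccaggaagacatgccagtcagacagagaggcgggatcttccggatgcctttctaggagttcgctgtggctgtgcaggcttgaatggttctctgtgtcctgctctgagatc
Gm46425, chr13:65950339-65950638, plus strand: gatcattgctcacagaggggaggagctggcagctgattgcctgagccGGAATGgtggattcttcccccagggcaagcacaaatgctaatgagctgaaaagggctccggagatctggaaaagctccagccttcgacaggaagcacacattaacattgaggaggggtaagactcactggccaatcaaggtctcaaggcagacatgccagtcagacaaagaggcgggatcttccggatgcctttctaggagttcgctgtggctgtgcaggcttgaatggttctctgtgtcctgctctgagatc
2410141K09Rik, chr13:66441069-66441368, minus strand: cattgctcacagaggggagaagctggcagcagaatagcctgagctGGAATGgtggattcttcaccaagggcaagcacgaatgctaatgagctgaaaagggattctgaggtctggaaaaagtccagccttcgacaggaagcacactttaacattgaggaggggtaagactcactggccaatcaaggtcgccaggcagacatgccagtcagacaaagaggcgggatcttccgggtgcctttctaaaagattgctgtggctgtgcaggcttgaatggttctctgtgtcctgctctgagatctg
Zfp640, chr13:66680754-66681053, minus strand: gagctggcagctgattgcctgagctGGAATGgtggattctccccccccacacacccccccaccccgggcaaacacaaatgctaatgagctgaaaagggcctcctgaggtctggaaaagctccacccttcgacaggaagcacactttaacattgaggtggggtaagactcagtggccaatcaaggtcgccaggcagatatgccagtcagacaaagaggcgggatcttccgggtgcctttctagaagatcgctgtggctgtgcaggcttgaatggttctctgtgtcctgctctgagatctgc
In global alignments the Gm31714 and Gm46425 windows were identical at 289 of 301 aligned positions (96%), and Gm31714 and 2410141K09Rik at 277 of 302 (91.7%). Zfp640 shared 81.7% to 82.2% with the other windows. Against all other ES-only promoter windows the median identity was 49.7% and the highest 56.8%. How reads were placed among such copies is not stated, so the count of separated regions at this locus, and which copy was open, are uncertain. Within the locus only these 4 windows were compared. Copies within the other loci were not compared, so whether their counts share this limit was not tested. Genes with predicted names, such as Gm31714, lay within 50 kb of 17.6% of ES-only and 10.5% of AFX-only regions, beside 10.5% of all union regions.

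Over all promoters, ES-only regions overlapped 97 RefSeq windows of 83 genes and AFX-only regions 256 windows of 235 genes. Median GC content was 64.7% and 62.3%, beside 56.3% in all 21263 windows and 65% in the 1898 windows of regions held by all 9 lists. The Klf motif was in 16.5% of ES-only windows (16 of 97) and 27.7% of AFX-only windows (71 of 256), beside 29.7% of windows held by all 9 lists. The Nrf1 motif was in 7 of 97 ES-only windows (7.22%) and 2 of 256 AFX-only windows (0.781%), and in 1.98% of all windows. The octamer was in 4 of 97 (4.12%) and 5 of 256 (1.95%), and in 1.66% of all windows. The Esrrb motif was in 0 and 1, and in only 0.334% of all windows, so few matches could be found in either set. Windows of 1 gene overlap and copies share letters, so these are counts of windows and carry no test. ES-only promoters also included the histone genes H2ac22, H2bc22, H2bc7, H2ac7, H3c13 and H2bc18, the circadian gene Clock and the cell cycle inhibitor gene Cdkn2a. The regions at these histone genes and at Cdkn2a had a peak in all 6 full-length EpiSC lists, and the Clock region in 5.

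Libraries that took no part in choosing the regions also separated the 2 kinds. At 8044 peaks, EpiSC in AF held 87.7% ± 3.12 (SD, n = 3) of the AFX-only regions and 6.23% ± 1.86 of the ES-only regions. FS1 held 88.4% ± 1.87 and 4.8% ± 1.98, and FS2 held 67.7% ± 2.37 and 16% ± 2.09. Over all union regions these 3 groups held 36.8%, 36.2% and 33.4%. FS2 libraries held fewer AFX-only and more ES-only regions than any library of the other 2 groups, and also fewer of the regions held by all 9 chosen lists (86.5% against 98.2% and 99%). No p is given for these differences. The FS2 lists were also shorter, with 11796 to 14147 peaks as deposited, against 15505 to 31263 in the other 2 groups. Their 8044th peak had a −log10 p of 5.18 to 5.64, against 6.86 to 8.98. The part of list length in these differences was not tested. All 9 of these lists together held 165 AFX-only regions (30.9%) and 0 ES-only regions, and none of them held 372 ES-only regions (66.2%) and 2 AFX-only regions. Of all union regions, 2507 (12.2%) were in all 9 of these lists and 7546 (36.6%) in none. Of the 2190 regions held by all 9 chosen lists, 68.4% were in all 9 of these lists and 0 in none.
The Rd2 set had short ES lists, of 471 and 2576 peaks. At 471 peaks the Rd2 ES lists held 2.31% and 3.2% of the ES-only regions and the Rd2 EpiSC lists held 0% and 0%. They held 0.187% and 0.749% of the AFX-only regions, and the Rd2 EpiSC lists 1.69% and 2.25%. An exact permutation test of 2 against 2 libraries has 6 assignments and cannot go below p = 0.333, which both differences reached (2.76 and -1.5 percentage points). All union regions were held at 2.09% and 2.21% by the Rd2 ES lists and at 2.25% and 2.27% by the Rd2 EpiSC lists. The matching cell type held its own kind at about the union share, and the other kind less often. At 2576 peaks, a length chosen after seeing the data, Rd2 ES replicate 2 held 11% of ES-only and 3.56% of AFX-only regions, and the Rd2 EpiSC lists held 0.712% of ES-only and 26.6% and 29% of AFX-only regions. All union regions were held at 11.1% to 12.2% by these lists.
In the lists as deposited, Rd2 ES lists held 3.2% and 11% of ES-only regions and the longer Rd2 EpiSC lists 12.8% and 11.7%. The same lists held 2.09% and 11.1%, and 42.6% and 41%, of all union regions, so the Rd2 EpiSC lists held ES-only regions less often than union regions, and the Rd2 ES lists did not. For AFX-only regions the deposited Rd2 EpiSC lists held 82.4% and 80.3%, and the Rd2 ES lists 0.187% and 3.56%. Of the 25 ES-only regions held by an Rd2 ES list at 471 peaks, several lay in the loci above, including ones near Zfp640, Zfp993 and Gm15319, and 2 lay at Duxf3 and its neighbour LOC100504180 on chromosome 10. Both of the latter had a peak in all 6 full-length EpiSC lists, both Rd2 EpiSC lists and all 4 EpiLC lists.
EpiLC, after 2 days of differentiation, held AFX-only regions more often than ES-only ones in the longer lists. The deposited EpiLC lists held 62.5%, 91.4%, 46.3% and 92.1% of AFX-only and 21.9%, 35.8%, 17.6% and 35.8% of ES-only regions, beside 38.8%, 61.2%, 29.6% and 62.7% of all union regions, with list lengths of 10563, 23608, 7469 and 26045 peaks. At 2576 peaks they held 12% to 20.2% of AFX-only and 3.2% to 5.34% of ES-only regions, beside 11.7% to 12.2% of all union regions. At 471 peaks the 2 kinds were close, 0.936% ± 0.265 and 0.801% ± 0.23 (SD, n = 4), both under the 2.26% of all union regions.
For the 21 AFX-only regions near listed genes, 20 had a peak in every deposited list of EpiSC in AF, 21 in every FS1 list and 9 in every FS2 list. Over all 534 AFX-only regions these shares were 96.6%, 99.1% and 63.5%, and 72.8% for both Rd2 EpiSC lists. Both Rd2 EpiSC lists had a peak at 13. Neither Rd2 ES list had one at any of the 21, as at 96.3% of all AFX-only regions. None of the 6 ES-only regions near listed genes had a peak in an Rd2 ES list, as was so for 495 of all 562 (88.1%). Of these 6, 4 had a peak in some EpiLC lists, among them the Zfp42 promoter region (2 lists) and the Tbx3 region (3 lists), and 2 in none. Of all 562 ES-only regions, 333 (59.3%) had a peak in no EpiLC list. The Acvr1b region had no peak in any EpiLC or Rd2 EpiSC list, in contrast to the Nodal region, which had one in all 4 EpiLC lists and both Rd2 EpiSC lists.

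**Figure D5:**
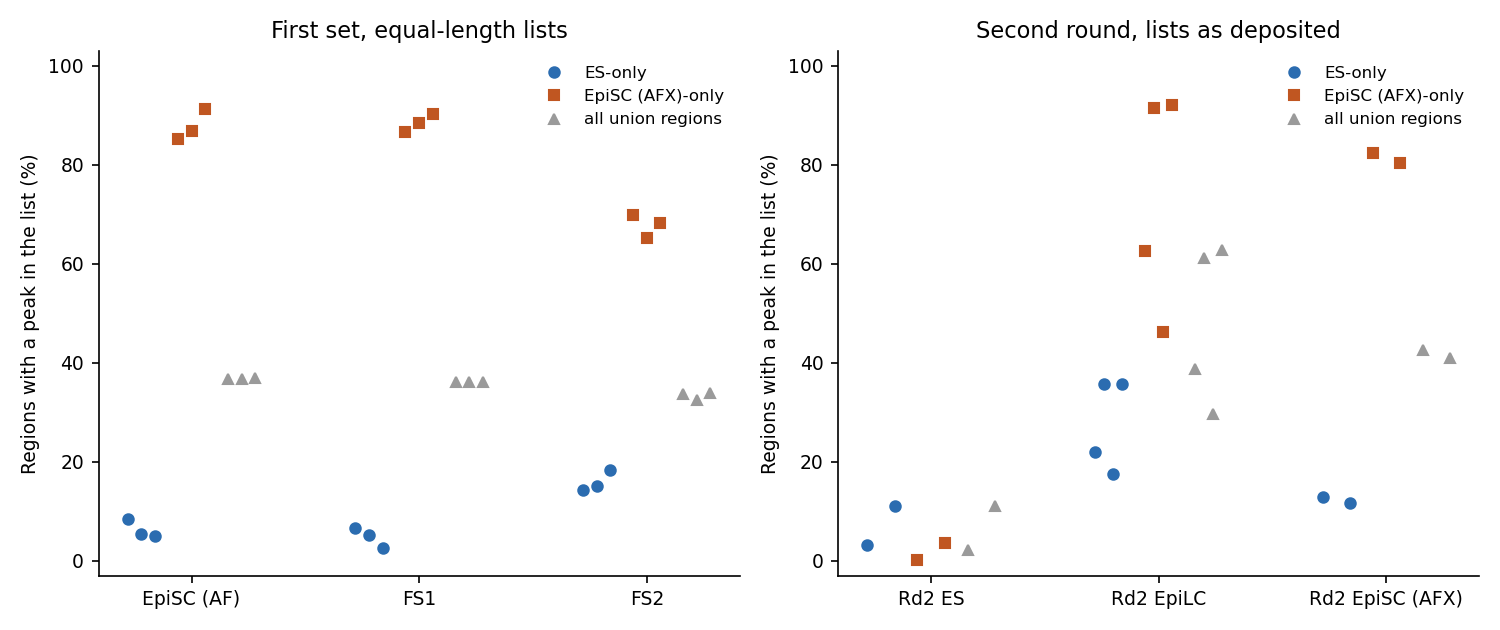
Percent of ES-only, AFX-only and all union regions (vertical axis) with a peak in each library not used to choose them. Left, EpiSC in AF, FS1 and FS2 at equal length; right, the Rd2 libraries as deposited, whose list lengths differ. AFX-only regions lie at 65.2 to 91.2% on the left, above ES-only regions at 2.67 to 18.3%.

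A microRNA gene, of 1005 in the RefSeq table, lay within 5 kb of 3 ES-only regions (0.534%) and 10 AFX-only regions (1.87%), beside 1.11% of all union regions. AFX-only regions lay 0.217 kb from Mir9-3, a neural microRNA gene, 0.826 kb from Mir92b and 2.21 kb from Mir26b, and an ES-only region lay 0.931 kb from Mir191 and 1.39 kb from Mir425. That region had a peak in 5 of the 6 full-length EpiSC lists. The Mir9-3 region had no full-length ES peak and a peak in both Rd2 EpiSC lists.
By chromosome, ES-only regions were most above their union share, in percentage points, on chromosomes 13 (8.9% against 4.42%) and 8 (9.61% against 5.72%), where the largest clusters lie. Chromosome Y, with 1.25% against 0.436%, had the highest ratio to the union share, from 7 ES-only regions and 0 AFX-only regions, and kept peaks on it made up 0.522% to 0.808% of ES lists, 0.236% to 0.286% of (AFX)1 lists and 0.0622% to 0.087% of (AFX)2 lists. AFX-only regions were most frequent on chromosome 4 (10.1% against 7.26% of the union).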

How the data were processed

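Peak lists of 26 ATAC-seq libraries were used as deposited. Per the submitters' processing notes the tools were Trim Galore, Bowtie, Picard and MACS2 and the build was mm10; versions, settings and the role of each tool are not given in the sources used here. Each list was deposited by the authors for 1 library, with a display score, a fold enrichment (a ratio over background) and −log10 p and −log10 q values per peak. Duplicate removal, blacklisting and any shift of reads for Tn5 could move peaks; they are not stated, and read depth is unknown.

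The members and gene lists were chosen with earlier results of these data known. Lists were cut to 8044 peaks (471 for Rd2) by −log10 p, ties by fold enrichment, and merged; a 1 bp overlap counted as presence. Genes were the 21900 protein-coding genes of RefSeq GRCm38.p6, with a 50 kb window. The table gives no strand, and promoter windows cover 17492 of these genes, so either gene end was used for position. Named are listed genes with a separated region within 50 kb, and in each direction the 10 genes with most separated regions, the 6 top-ranked regions with no full-length peak in the other type and the 3 top-ranked with one in every list (0 AFX-only regions qualify). Further names (Klf2, Klf4, Esrrb, Lefty1, Lefty2, Fgf5, Otx2, promoters of histone genes, Clock and Cdkn2a, Rd2 regions, microRNA genes) were chosen after their values were seen. Tests were exact two-sided permutation tests over libraries and Fisher's exact tests (Python 3.11.15, SciPy 1.17.1, numpy 2.4.6, pandas 2.3.3). The steps were tested on simulated lists. Alternatives were ranking by fold, other list lengths, −log10 q of at least 5, stricter overlap, other windows and leaving out libraries. No 2 lists of 1 group were copies: at most 13 peaks of 1 pair were identical in position and values.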

Additional observations from a re-analysis of the deposited data

Results flagged for a closer look

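Among 28 sets of 4 or 6 libraries examined for a library that stands apart, 2 had one; chance alone gives about 1 in 20. The share of kept peaks over 50 kb from any gene was 6.97% in EpiSC (AFX)2 replicate 2, and the nearest of the other EpiSC libraries had 5.54%. Without that library the ES excess was 8.73 percentage points, beside 8.42 with it. Kept peaks near the 14 Wnt pathway genes numbered 12 in the same library, the lowest, and 16 in the next.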

How the results depend on the processing

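The choice of peaks per list moved the counts most. With 4022 peaks per list there were 262 ES-only and 239 AFX-only regions, and 280 and 668 genes with more peaks in every ES or every EpiSC list. The lists as deposited gave 254 and 4222 regions and 68 and 8512 genes, and peaks with −log10 q of at least 5 gave 16 and 2338 regions and 5 and 6674 genes. A 20 kb window gave 806 genes for EpiSC. Leaving out 1 library gave 572 to 959 ES-only and 588 to 739 AFX-only regions, and 510 to 777 and 1340 to 1823 genes. Against line (AFX)1 alone there were 1005 AFX-only regions and 2107 genes with more peaks in EpiSC; against (AFX)2 alone 1280 and 2152, and 768 genes with more peaks in ES. Ranking by fold kept each of these 4 counts within 1.5 times.

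Differences in position (ES minus EpiSC, percentage points) kept their direction at equal length with 1 library left out: -12.1 to -11.4 at gene ends, 3.75 to 4.02 at 1 to 50 kb, 7.87 to 8.76 over 50 kb, and -93.5 to -80.1 bp in width. As deposited they were 4.58, -2.74, 4.22 and -13.3 bp (exact permutation tests, adjusted p from 0.0595 to 0.202). Each line alone allows no p under 0.1: -12, 3.52, 8.9 and -68.7 bp against (AFX)1, and -11.5, 4.26, 7.95 and -101 bp against (AFX)2. Peaks inside genes changed sign (0.738 with 4022 peaks, 0.385 with the q limit, 0.0414 with 2 kb from gene ends; -0.68 to -0.412 with 1 library left out, passing at -0.666 without (AFX)1 replicate 3, adjusted p = 0.0357 in an exact permutation test). With the replicate block (27 assignments) the difference of -0.553 passed, at p = 0.037 in an exact permutation test; same-numbered libraries correlated between -0.0198 and 0.00456, so the numbers do not pair them, and the block changed no other call. In the Rd2 lists as deposited the ES-only difference was -5.16; with 1 library left out it was 2.76 to 10.3, and the AFX-only difference -24.3 to -1.22. The cause of these changes was not tested.

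Over 27 listed genes and all alternatives, 371 of 459 values of the regions near a gene were as in the comparison reported, 84 differed without a change of sign and 4 changed sign; 54 values were 0, of which 24 with 4022 peaks, 12 with the q limit and 12 with ranking by fold. The ES-only share at gene ends (17.1%) was 5.91% as deposited and 6.25% with the q limit, and the AFX-only share over 50 kb from genes (3.37%) was 7.11% as deposited, 7.03% against (AFX)2 alone and 1.71% with the q limit. Tfcp2l1 was at 1 with 4022 peaks (ES-only minus AFX-only regions, -1 at full equal length), and Cdx1, Prdm1 and Pdgfrb were at -1 in the lists as deposited. The single lines and the loci were added as alternatives after seeing the data. Outside the loci of 4 or more regions the 2 counts stayed within 1.5 times. List length limits what can be seen: the shortest list sets the number of peaks compared.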
